A study of Rattus norvegicus with 8 samples.

Results

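Retinoid genes were examined in the liver of male Wistar rats fed the HP diet (1.2% phosphorus) or the control diet (0.3% phosphorus). The rats arrived at 4 weeks of age, were all kept on the control diet for 7 days, then received 1 of the AIN-93G-based diets for 24 days and were 8 weeks old when the liver was taken. The study had 5 rats per diet, of which 4 per diet are analysed here, with 1 Affymetrix array of total liver RNA per rat. The values are on a log2 scale after FARMS summarisation, in which each probe set, the group of probes that reads 1 transcript, gets 1 value per array.

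The 8 genes described are Rbp4, Lrat, Rdh10, Retsat, Aldh1a1, Cyp26a1, Cyp26b1 and Rarb, which carry, store, oxidise or sense vitamin A. They were listed with earlier results of the HP and control comparison known, and their measured probe sets were selected on their span over the same arrays, so the differences between the diets are given as a description of these 8 rats, read from fits over the whole array. Each gene was found through the probe sets that the array annotation gives to that single symbol, and a probe set was counted as measured when its highest and lowest values over the 8 arrays differed by at least 0.05. The 8 genes had 10 probe sets among 31042 on the array, and 5 of them, each from a different gene, were among the 4155 measured ones. At the level of genes, 5 of the 8 were measured, namely Lrat, Retsat, Aldh1a1, Cyp26b1 and Rarb, against 2809 of 14218 genes with a single symbol.

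The liver is the main store of vitamin A in the body. Retinol that reaches it is esterified by Lrat, kept as retinyl ester mostly in the fat droplets of hepatic stellate cells, and released to the blood bound to Rbp4, which hepatocytes make. Retinol is oxidised reversibly to retinal by dehydrogenases such as Rdh10, retinal is oxidised irreversibly to retinoic acid by enzymes such as Aldh1a1, and retinoic acid is broken down by the Cyp26 enzymes, while Retsat leads retinol into a separate branch as dihydroretinol. Retinoic acid acts through nuclear receptors such as the product of Rarb, and Rarb, Cyp26a1, Cyp26b1 and Lrat are themselves known as genes that retinoic acid induces.

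The diets were compared in 2 ways, each across the whole table. Rank products, the method of the study, ranks the differences of all 16 pairs made of 1 HP and 1 control array and calls a probe set at a false discovery rate (FDR) under 0.05, without using the spread of that probe set among the rats of a diet. It also made calls in simulated arrays without a diet difference, so a call by rank products alone does not establish a difference. Limma tests each measured probe set against that spread, with p-values adjusted by the Benjamini-Hochberg method. Across the array, rank products called 1.14% of all probe sets higher and 1.59% lower in HP diet-fed rats, and all of these were measured probe sets, of which they made up 8.50% and 11.9%. Limma called 0% of the measured probe sets at an adjusted p under 0.05 and gave an unadjusted p under 0.05 and a higher value for 5.37%, and a lower value for 7.29%. Every HP diet-fed rat lay above every control rat at 3.10% of the measured probe sets and below every control rat at 4.07%.

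Of the 5 measured genes, rank products called Cyp26b1 and Aldh1a1 higher and Rarb lower, called neither Lrat nor Retsat, and limma called none of the 5. Since the genes were listed with this same contrast known, their 2 higher calls and 1 lower call are set beside the background of 8.50% and 11.9% without reading more from them. Cyp26b1 alone had an unadjusted p under 0.05, and at none of the 5 genes did all rats of 1 diet lie on the same side of all rats of the other. The genes cover a wide range of differences, from an increase of 1.76-fold for Cyp26b1 to 0.830 times the control level for Rarb.

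**Figure D1:**
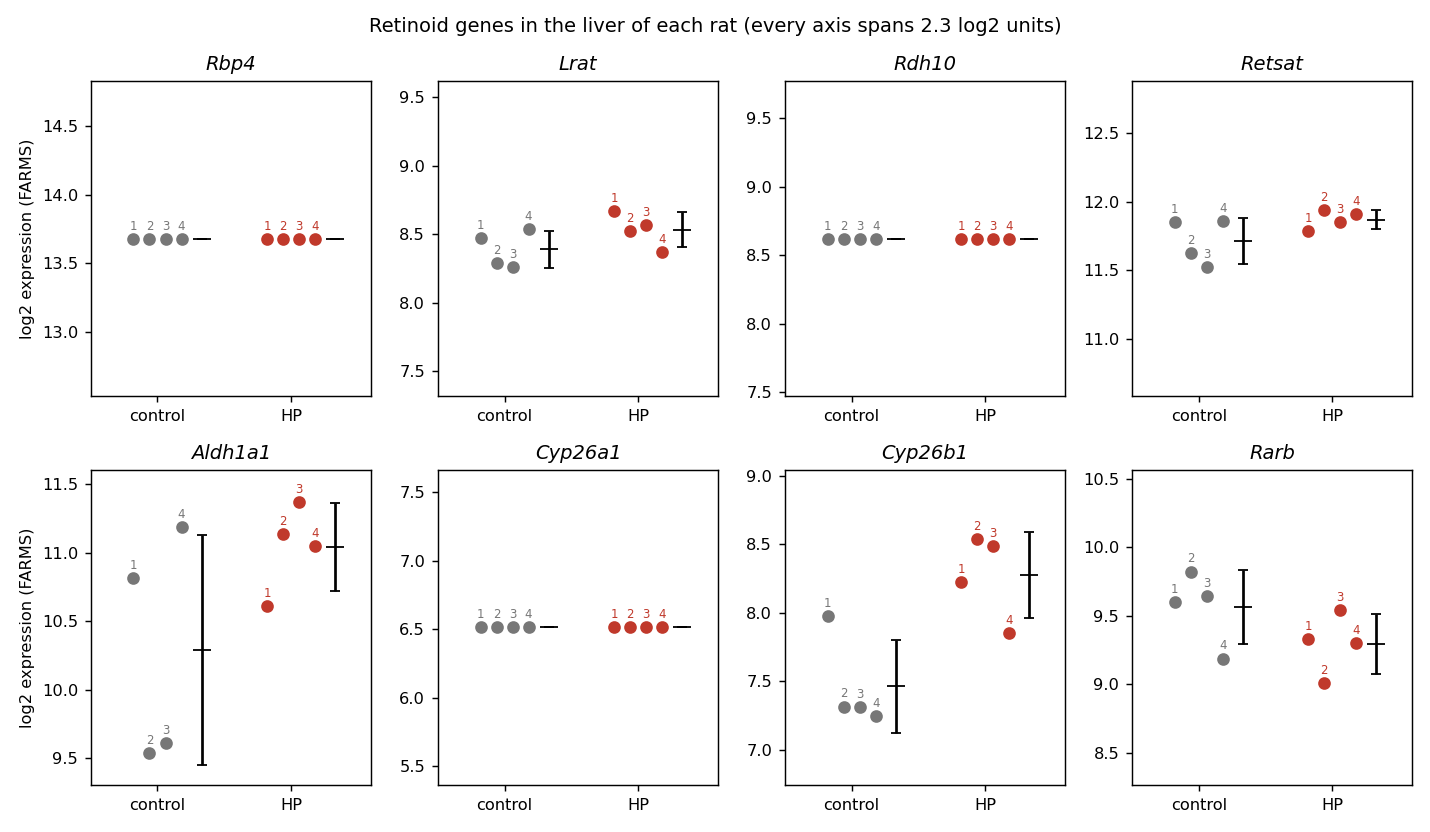
Log2 expression of the 8 retinoid genes (y axis) in each rat, with control rats in grey and HP rats in red, with the rat number above each point and the mean with SD (n = 4) in black beside it; every y axis has the same length in log2 units but is placed at the gene's own level. Cyp26b1 separates the diets except for control rat 1 and HP rat 4, Aldh1a1 is low in control rats 2 and 3, and Rbp4, Rdh10 and Cyp26a1 are flat.

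Cyp26b1, an enzyme that hydroxylates retinoic acid for its removal, showed the largest difference of the 5. Its measured probe set read 7.97, 7.32, 7.32 and 7.25 in control rats 1 to 4, a mean of 7.46 ± 0.34 (SD, n = 4). In HP rats 1 to 4 it read 8.23, 8.54, 8.49 and 7.86, a mean of 8.28 ± 0.31 (SD, n = 4). HP rats 1, 2 and 3 lay above every control rat, whereas HP rat 4 lay above 3 control rats and below control rat 1, which stood apart from the rest of its diet. The log2 difference was 0.81 with a standard error of 0.20 and a 95% confidence interval of 0.36 to 1.26 in the limma fit, where the unadjusted p was 0.00280 and the adjusted p 0.217. Rank products placed it at rank 7 of 31099 for higher values in HP diet-fed rats (FDR = 0.000286), and its difference was larger in size than that of 99.6% of the measured probe sets. Without control rat 1 the difference was 0.98 and the limma adjusted p 0.0524, and without HP rat 2 they were 0.72 and 0.5064. With any other rat left out the adjusted p was at least 0.2555, the value without control rat 4. Leaving out control rat 1 changed limma over the whole array. The smallest adjusted p fell from 0.156 to 0.0517, and unadjusted p-values under 0.05 rose from 526 to 850. The low adjusted p without control rat 1 was therefore not particular to Cyp26b1.

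A second probe set of Cyp26b1 was almost constant at 6.85, with a span of 0.000615 over the 8 arrays. Within that small span all 4 HP arrays lay above all 4 control arrays, as they did at 2.40% of the 26887 almost constant probe sets, and its values followed those of the measured probe set over the 8 rats with a Pearson r of 0.911, given here as a description in which the diets contribute to the likeness. Among 1304 pairs of a measured and an almost constant probe set of the same gene the median r was 0.468, and 3.45% of the pairs had a higher r than the Cyp26b1 pair. This second probe set was not called by rank products (FDR = 0.926) and was not tested by limma, and only the measured one gives a size for the difference. At such a span the second probe set cannot compare the diets, and its values are not read as support for the measured one.

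Cyp26a1, the closest relative of Cyp26b1 on the list and an enzyme of the same reaction, could not be compared between the diets. Its single probe set was listed at 6.51 in every rat with a span below 0.001. Of the probe sets within 0.5 of that level 1.57% were measured, against 23.8% near the level of the measured Cyp26b1 probe set, so most probe sets as dim as that of Cyp26a1 carried no usable difference on this array. The constant value therefore sets no bound on the Cyp26a1 transcript in either diet.

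Aldh1a1, a cytosolic retinal dehydrogenase that makes retinoic acid and is abundant in hepatocytes, was the second gene called higher. The control rats read 10.82, 9.54, 9.61 and 11.19, a mean of 10.29 ± 0.84 (SD, n = 4). The HP rats read 10.61, 11.14, 11.37 and 11.05, a mean of 11.04 ± 0.32 (SD, n = 4). Control rats 2 and 3 were more than 1 log2 unit below the other control rats, control rats 1 and 4 lay within the range of the HP diet, and 1 of 4 HP rats lay above the highest control rat. The difference was 0.75, or 1.69-fold, with a standard error of 0.37 and a 95% confidence interval of -0.09 to 1.59. Rank products called it at rank 28 (FDR = 0.00132), while the limma adjusted p was 0.425. The call was kept, but nearer the threshold, with only measured probe sets ranked (FDR = 0.0331) and without HP rat 3 (FDR = 0.0357). The SD among its control rats was larger than that of 99.3% of the measured probe sets, and leaving out control rat 2 lowered the difference to 0.50.

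Rarb, a retinoic acid receptor whose own gene responds to retinoic acid, was called lower. Control rats 1 to 4 read 9.60, 9.82, 9.64 and 9.19 (mean 9.56 ± 0.27, SD, n = 4), and HP rats 1 to 4 read 9.33, 9.01, 9.54 and 9.30 (mean 9.29 ± 0.22, SD, n = 4). All 4 HP rats lay below the control mean, but control rat 4 was lower than 3 of the HP rats, and HP rat 2 alone lay below every control rat. The difference was -0.27, with a standard error of 0.15 and a 95% confidence interval of -0.61 to 0.07. Rank products gave an FDR of 0.0249 and limma an adjusted p of 0.461. The rank products call was lost without HP rat 2 (FDR = 0.0800) and without control rat 1, 2 or 3 (FDR = 0.0876, 0.185 and 0.128), and it was lost when only the measured probe sets were ranked (FDR = 0.613).

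Lrat, which esterifies retinol for storage, read 8.47, 8.29, 8.26 and 8.54 in control rats 1 to 4 and 8.67, 8.52, 8.57 and 8.37 in HP rats 1 to 4. The diets overlapped, with 2 of 4 HP rats above the highest control rat and HP rat 4 among the control rats. The difference of 0.14, or 1.10-fold, had a standard error of 0.09 and a 95% confidence interval of -0.06 to 0.35, and it was called neither by rank products (FDR = 0.0852) nor by limma (adjusted p = 0.514).

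Retsat, the retinol saturase, read 11.86, 11.62, 11.52 and 11.86 in control rats 1 to 4 and 11.79, 11.94, 11.85 and 11.91 in HP rats 1 to 4. Control rats 2 and 3 were the lowest of the 8, as they were for Aldh1a1 and Lrat, and control rats 1 and 4 lay within the range of the HP rats. The difference was 0.16, or 1.11-fold, with a standard error of 0.08 and a 95% confidence interval of -0.03 to 0.34 (rank products FDR = 0.118, limma adjusted p = 0.443). The intervals of Lrat and Retsat leave room for a change in either direction, and a difference that misses the threshold does not show that the diets were alike.

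Rbp4 and Rdh10, the carrier of retinol in blood and a retinol dehydrogenase, were almost constant. The probe set of Rbp4 was listed at 13.68 in all 8 rats, and of the 57 probe sets within 0.5 of its level 24 (42.1%) were measured, so that a bright probe set without a measured difference was common at that level. Rdh10 had a probe set at 8.62, where 38.2% of the neighbours in level were measured, and a second one at 5.88, where 0.265% were. Neither gene can be compared between the diets from these values.

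The minimum of 0.05 left no retinoid probe set near it. The measured retinoid probe set with the smallest span was that of Lrat, at 0.41, and the almost constant one with the largest span was the second of Cyp26b1, at 0.000615. Over the whole array 157 probe sets spanned from 0.01 to 0.05.

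**Figure D2:**
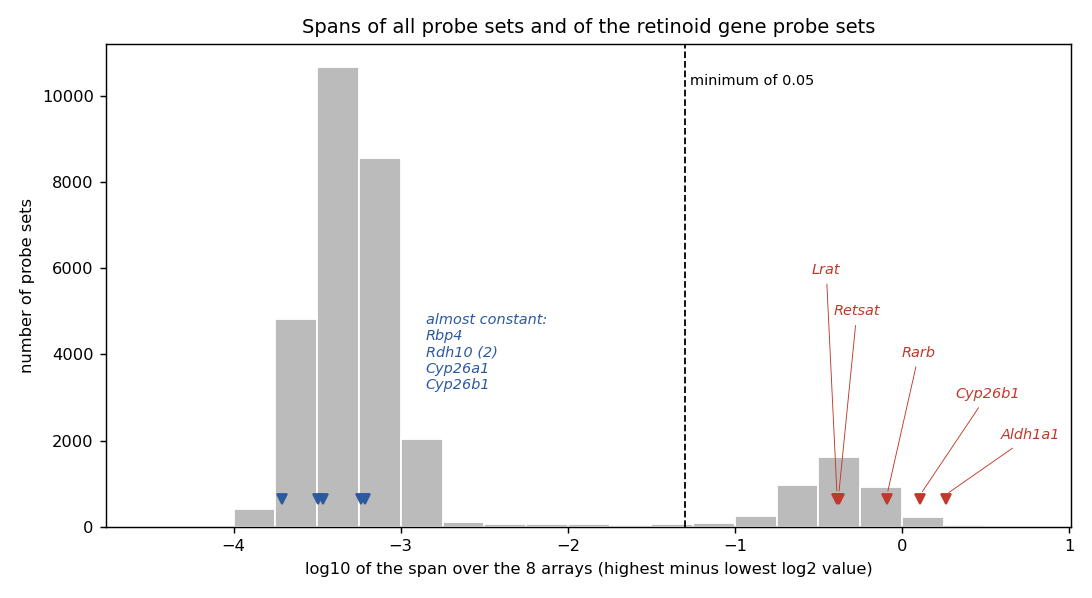
Number of probe sets (y axis) by the log10 of their span over the 8 arrays (x axis), with the 5 almost constant retinoid probe sets as blue triangles, the 5 measured ones as red triangles and the minimum of 0.05 as a dashed line. The retinoid probe sets fall into both humps of the distribution and none lies between them.

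With each rat left out in turn, the sign of the difference held at all 5 measured genes. The range was 0.72 to 0.98 for Cyp26b1, 0.50 to 1.05 for Aldh1a1, 0.09 to 0.20 for Retsat, 0.10 to 0.20 for Lrat and -0.39 to -0.17 for Rarb. Control rats 2 and 3 set the lower end for Aldh1a1 and Retsat, since the difference shrank when either was left out, and the largest difference of Aldh1a1 and the lowest value of Rarb were those without control rat 4. Cyp26b1 and Aldh1a1 were called higher by rank products with any 1 rat left out.

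**Figure D3:**
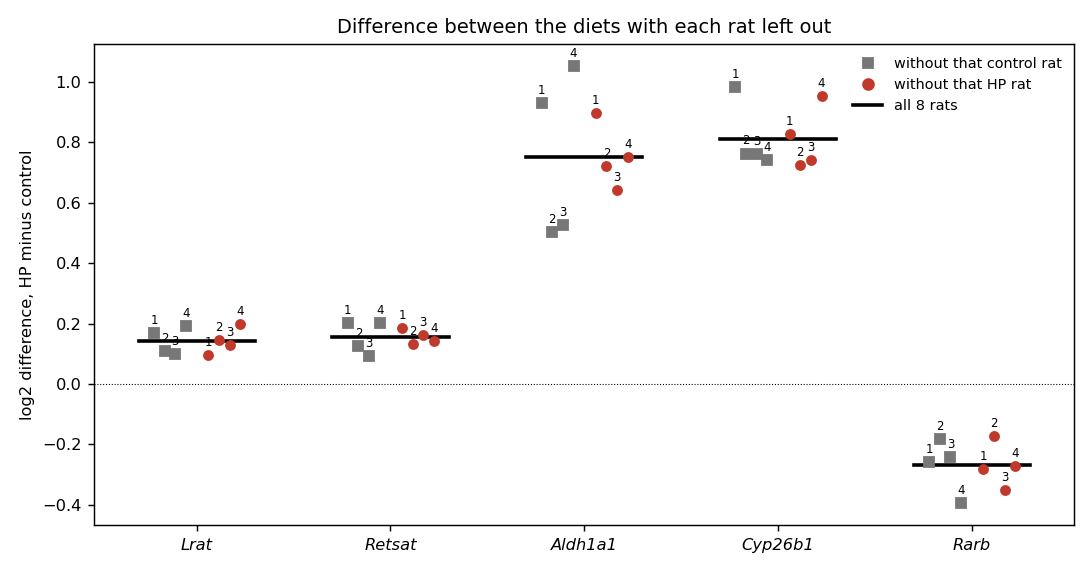
Log2 difference between HP and control rats (y axis) of the 5 measured retinoid genes with all 8 rats (black line) and with 1 control rat (grey squares) or 1 HP rat (red circles) left out, the number being that of the rat. All points of Cyp26b1 and Aldh1a1 lie at or above 0.50, and all points of Rarb lie at or below -0.17.

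Within the control diet the same rats were low or high for several of the retinoid genes, and within the HP diet this held only in part. Among the control rats Retsat and Lrat had the same order, with rat 4 highest, then rats 1, 2 and 3. Aldh1a1 differed from that order only in the places of rats 2 and 3, and Rarb ran the other way, with rat 2 highest, then rats 3, 1 and 4. Among the HP rats, rat 1 was highest for Lrat and lowest for Aldh1a1 and Retsat, and rat 3 was highest for both Aldh1a1 and Rarb. After the mean of each diet was subtracted, the Pearson r over the 8 rats was 0.894 between Aldh1a1 and Retsat, 0.571 between Aldh1a1 and Lrat, -0.569 between Aldh1a1 and Rarb, and -0.612 between Retsat and Rarb. The r was 0.458 between Retsat and Lrat and -0.376 between Lrat and Rarb. For Cyp26b1 it was 0.321 to Aldh1a1, 0.337 to Retsat, 0.434 to Lrat and 0.04 to Rarb. These values describe 8 arrays, in which any difference in RNA or array quality between rats is shared by all genes.

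**Figure D4:**
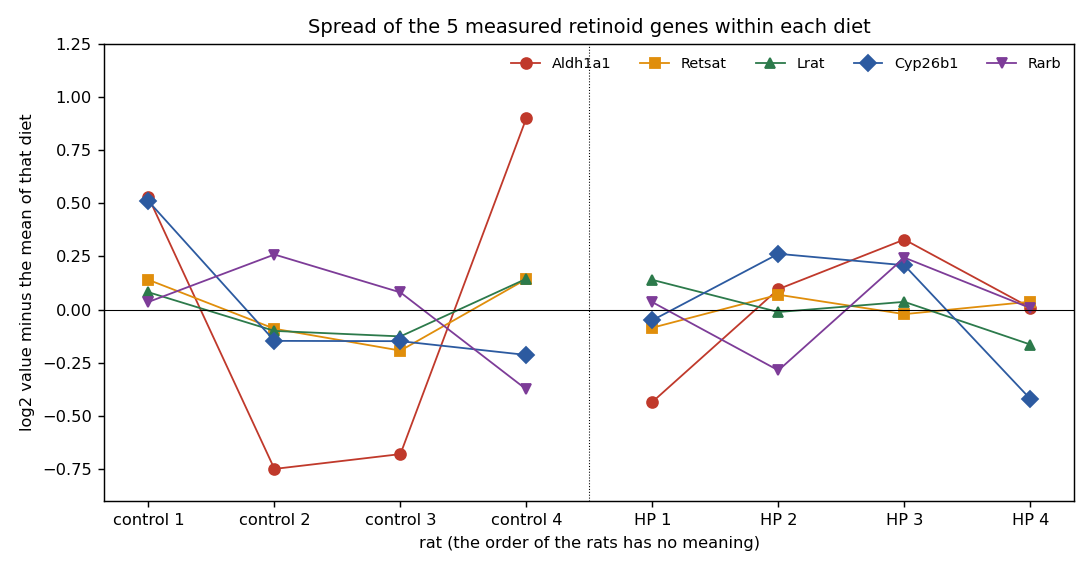
Log2 value minus the mean of the rat's own diet (y axis) for the 5 measured retinoid genes in each of the 8 rats (x axis); lines only join the points of 1 gene within a diet. Aldh1a1, Retsat and Lrat are above their mean in control rats 1 and 4 and below it in control rats 2 and 3, Rarb is highest in control rat 2, and Cyp26b1 is high in control rat 1 and low in HP rat 4.

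Genes most like the 3 called members within a diet were taken from all 2809 measured genes by the same centred r. For Aldh1a1 they were Acsm2 (r = 0.983), Fkbp9 (0.953), Etfa (0.952), Acaa2 (0.949) and Ech1 (0.944). Acsm2 encodes a medium-chain acyl-CoA synthetase, and Etfa and Acaa2 encode proteins of mitochondrial fatty acid oxidation. The study lists Ech1 under the title of a peroxisomal enoyl-CoA hydratase, among its genes of fatty acid β-oxidation. For Cyp26b1 they were Apoa5 (0.957), an apolipoprotein of triglyceride-rich particles, Tle1 (0.951), Rnf138 (0.950), Serpina3n (0.936) and LOC102546992 (0.926). For Rarb they were Pyroxd2 (0.980), Atosa (0.970), Pc (0.961), the pyruvate carboxylase, Stac3 (0.959) and Kdm2b (0.946). These are the 5 highest of 2809 values for each gene over 8 rats, and they describe likeness in these livers alone.

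The wider retinoid pathway was read from a list of 57 genes including the 8, of which 50 had a probe set and 22 were measured. Outside the 8 listed genes, 17 of 42 with a probe set were measured. Their mean in HP diet-fed rats was higher at 11 and lower at 6, beside 43.5% of all measured probe sets with a higher mean. Their median difference was 0.06, beside a median of -0.02 over all measured probe sets. Rank products called 1 of the 17 higher (Adh1c) and 1 lower (Pnpla3), beside the background of 8.50% and 11.9%, and limma called none. At the probe set that represents the gene, no other gene of the pathway differed by as much as Cyp26b1, Aldh1a1 or Rarb, the range being -0.21 to 0.21.

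**Figure D5:**
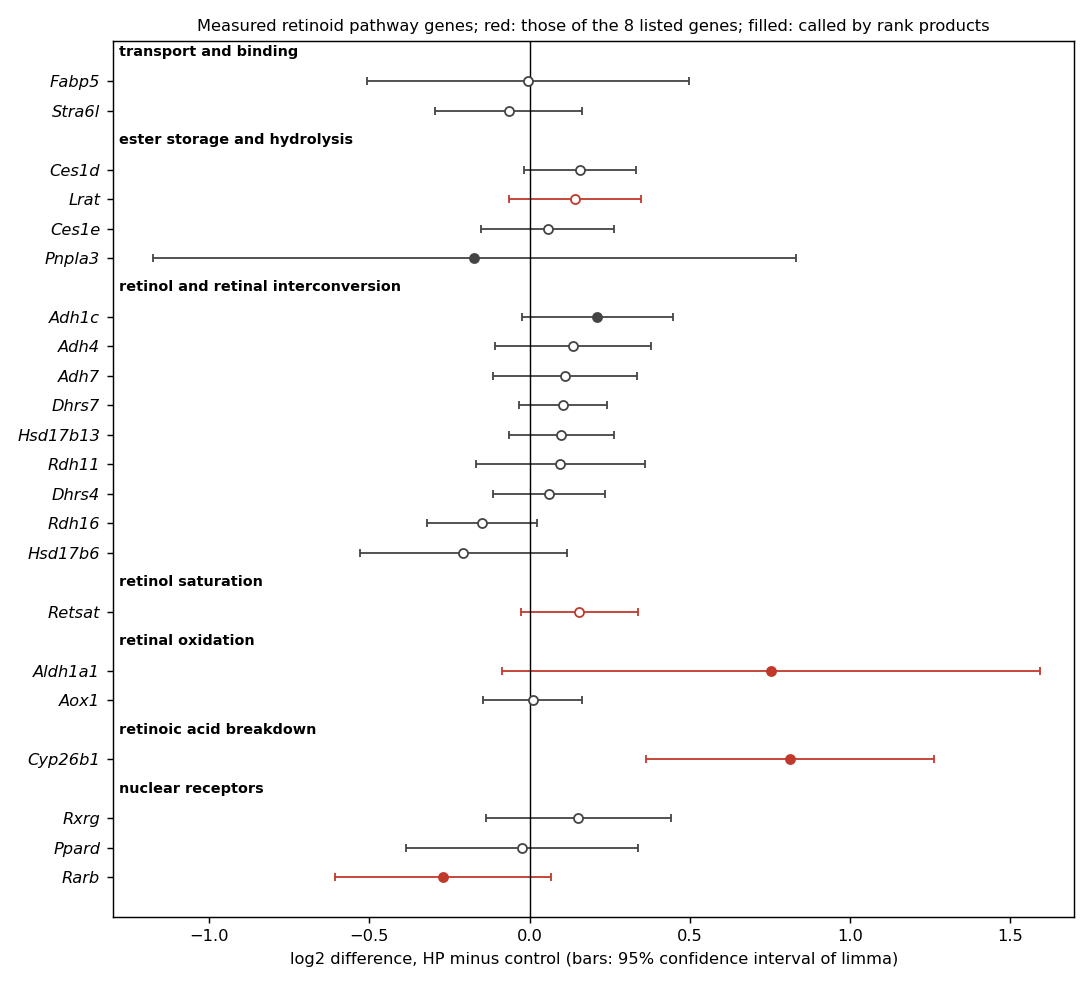
Log2 difference between HP and control rats (x axis) with its 95% confidence interval from limma for the 22 measured retinoid pathway genes, grouped by role, with those of the 8 listed genes in red and filled points where rank products called the gene. The interval of Cyp26b1 alone stays clear of 0, that of Aldh1a1 is wide, and that of Pnpla3 is the widest among the other genes.

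Among the genes other than Rdh10 that interconvert retinol and retinal, 9 of 18 with a probe set were measured. Of these, 7 had a higher and 2 a lower mean in HP diet-fed rats, beside 43.5% of all measured probe sets with a higher mean. Adh1c, an alcohol dehydrogenase of hepatocytes that also oxidises retinol, read 12.84, 12.50, 12.34 and 12.63 in control rats 1 to 4 and 12.69, 12.78, 12.97 and 12.71 in HP rats 1 to 4, so that the diets overlapped and control rat 3 was lowest. Its difference was 0.21, or 1.16-fold (rank products FDR = 0.0472, limma adjusted p = 0.425). A second measured probe set gave 0.34 (rank products FDR = 0.00993, limma adjusted p = 0.409). The call at the first probe set held in 4 of 14 alternatives: it was kept without control rat 1 and lost when any of the other rats was left out, with FDR up to 0.253 without HP rat 3, and when only measured probe sets were ranked (FDR = 0.694). Over the 8 rats, centred within the diet, Adh1c had an r of 0.766 to Aldh1a1, 0.732 to Retsat and 0.708 to Cyp26b1. Hsd17b6, an oxidoreductase of retinoids and steroids, had a difference of -0.21 and just missed the rank products threshold (FDR = 0.0502).

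Of the other genes of ester storage, 3 of 6 with a probe set were measured. Pnpla3, a lipase that also acts on retinyl esters, read 6.68, 8.37, 8.51 and 8.76 in control rats 1 to 4 and 7.17, 8.24, 8.22 and 8.01 in HP rats 1 to 4. Rat 1 of each diet was far below the rest, and the difference of -0.17 (rank products FDR = 0.0154, limma adjusted p = 0.887) turned to 0.05 without control rat 4 and to 0.07 without HP rat 1. The call was lost without control rat 2, 3 or 4 (FDR = 0.0878, 0.110 and 0.143). Of the other 2 measured probe sets of Pnpla3, 1 gave -0.20 and was called lower by rank products (FDR = 0.0141) but not by limma (adjusted p = 0.879). The last gave 0.04 and was not called. Ces1d, a carboxylesterase, had a difference of 0.16 (FDR = 0.0814) and Ces1e of 0.06, neither of them called.

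Outside storage and interconversion few genes were measured. Of the other retinal oxidising enzymes Aox1 alone was measured, with a difference of 0.01, while Aldh1a2 and Aldh1a3 were not among the measured genes. In transport and binding 2 of 8 other genes with a probe set were measured, Stra6l (-0.07, from -0.15 to -0.02 with a rat left out) and Fabp5 (-0.00, from -0.16 to 0.15). Neither was called with all rats, but Fabp5 was called higher without control rat 2 (FDR = 0.0458) or control rat 3 (FDR = 0.0477). Ttr, which carries Rbp4 in blood, was almost constant. Of the other nuclear receptors on the list Rxrg (0.15, and 0.06 without HP rat 4) and Ppard (-0.02, and 0.10 without control rat 2) were measured and not called. No gene of carotenoid cleavage was measured.

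Genes that retinoic acid is known to induce were read from a list of 12, of which 9 had a probe set and 5 were measured. These 5 include Cyp26b1, Rarb and Lrat, with differences of 0.81, -0.27 and 0.14. The remaining ones were Tgm2, a transglutaminase, at 0.03, and Nrip1, a nuclear receptor corepressor, at 0.00. Neither was called by rank products or limma, and the 3 listed genes did not share 1 direction.

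Promoter sequences of the listed genes are shown for 3 of them, Cyp26a1, Cyp26b1 and Rarb, which are among those that retinoic acid is known to induce. Retinoic acid receptors are known to bind direct repeats of a hexamer. The 250 bases before the start and the 50 after it were taken from RefSeq (GRCr8), which had an entry for 7 of the 8 genes. They were searched on both strands for 2 hexamers in the same direction, each being the letters AGGTCA or one of the forms with a changed letter or pair of letters, namely AGTTCA as the first, then GGGTCA as the second, and GGTTCA as the last, with a spacer of 5 or of 2 bases. Capitals mark the repeat with a spacer of 5, which was found at Cyp26a1 (on the reverse strand, beginning 92 bases before the start) and at Rarb (25 bases after it). The upstream bases of Cyp26a1 (chr1:244883572-244883821, plus strand) and of Cyp26b1 (chr4:118616177-118616426, minus strand) and the bases around the repeat of Rarb (chr15:11336410-11336439, plus strand) read, from 5′ to 3′:
Cyp26a1: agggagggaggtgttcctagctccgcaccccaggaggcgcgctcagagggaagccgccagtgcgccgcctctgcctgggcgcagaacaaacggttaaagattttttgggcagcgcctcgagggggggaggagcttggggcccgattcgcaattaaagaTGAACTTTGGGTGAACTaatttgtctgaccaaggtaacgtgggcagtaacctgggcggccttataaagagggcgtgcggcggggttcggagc
Cyp26b1: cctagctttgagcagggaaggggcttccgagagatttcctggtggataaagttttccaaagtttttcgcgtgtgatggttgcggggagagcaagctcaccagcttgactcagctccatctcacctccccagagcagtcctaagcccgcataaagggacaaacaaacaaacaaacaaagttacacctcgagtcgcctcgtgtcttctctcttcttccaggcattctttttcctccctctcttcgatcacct
Rarb: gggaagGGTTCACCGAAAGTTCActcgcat
The windows of Cyp26b1, Aldh1a1, Retsat, Lrat and Rbp4 held no repeat with a spacer of 5, and none of the 7 windows held one with a spacer of 2. Of 33469 rat promoter windows of the same length 128 (0.382%) held the first kind of repeat and 57 (0.170%) the second. Of the genes with the repeat, Cyp26a1 was not measured and Rarb was called lower by rank products. Cyp26b1, with the largest difference, had no match in this window. A relation between the repeat and the differences between the diets was not tested. Both matches have the form of the response elements described for these genes, but binding was not measured here, and a missing match says only that the letters are not in this window.

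In whole liver RNA, fewer cells of a type and less RNA per cell cannot be told apart. Markers of liver cell types were read on the same arrays, and the same limit holds for them. Of the hepatocyte markers 3 of 8 were measured (Apoa1, Fgb and Hnf4a) and none was called at the probe set that represents it. A second probe set of Hnf4a was called higher by rank products (log2 difference 0.45, FDR = 0.00518) but not by limma (adjusted p = 0.320). The summed level of the hepatocyte markers, in which the brightest weigh most, ran from 14.69 to 14.77 in control rats and from 14.66 to 14.76 in HP rats. Stellate cells hold most of the Lrat of the liver. Leaving Lrat out, 9 of 17 stellate cell markers were measured, none was called, the median difference was 0.03, and the summed level ran from 12.10 to 12.39 and from 12.13 to 12.38. Of the sinusoidal endothelial markers 4 of 11 were measured, all 4 with a higher mean in HP diet-fed rats (beside 43.5% of all measured probe sets). Stab2 and Kdr were called higher by rank products (beside 8.50% of all measured probe sets), and limma called neither (adjusted p = 0.320 and 0.217). At Kdr every HP rat lay above every control rat (beside 3.10%). The summed level of the endothelial markers ran from 11.53 to 11.70 and from 11.69 to 11.84. Of 12 Kupffer cell markers 9 were measured, all 9 with a lower mean in HP diet-fed rats and Cd5l called lower (beside 11.9% of all measured probe sets called lower, and 43.5% with a higher mean). At 1 of the 9 every HP rat lay below every control rat (beside 4.07%). The summed levels of the Kupffer cell markers were 12.48 to 12.73 and 12.47 to 12.59. No cholangiocyte or lymphocyte marker was measured. Limma called none of the measured markers of any cell type. The part of the endothelial and Kupffer cell markers in the differences of Cyp26b1, Aldh1a1 and Rarb was not tested.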

How the data were processed

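Liver RNA of 8 rats, 4 per diet and 1 array each, was analysed. According to the deposited labels and the study's methods, the authors summarised the probes with FARMS in R 2.13.1, and the deposited values are log2 expression. How the arrays were scaled to each other is not stated by any source used here, and no scaling was added. The array medians were 6.65 in every rat, and the small number of arrays limits the precision. Retinoid genes and all gene lists were chosen with earlier results of these data known.

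Genes were named from the array annotation, using probe sets with 1 symbol (20826). The probe set with the highest mean among those spanning at least 0.05 represented a gene. Named genes were the 8 members and, of the other retinoid pathway and retinoic acid response genes, those called by rank products and the 2 measured ones with the largest difference per role. Called cell type markers are named too. Rank products (numpy 2.4.6, Python 3.11.15) used all probe sets, 16 array pairs and 1000 permutations within arrays, and 200 in the alternatives, with an FDR under 0.05. Limma 3.58.1 (R 4.3.3, statmod 1.5.0, trend and robust estimation) used the 4155 measured probe sets, two-sided. Both were tested on simulated data. The numbers of the rats do not pair animals. Summed marker levels are log2 of summed linear values. Centring, quantile scaling, gene means, filters, array weights, a replicate block and leaving out each rat were tried. Figures were drawn with matplotlib 3.10.9, and tables were handled with pandas 2.3.3 and scipy 1.17.1.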

Additional observations from a re-analysis of the deposited data

Results flagged for a closer look

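The values of the 16 named retinoid genes with a measured probe set were checked for a rat apart from the others of its diet, by the gap to the nearest rat divided by the range of the diet, and 3 of 32 groups passed Dixon's critical value for 4 samples, where chance gives about 1 in 20. Cyp26b1 in control rat 1 (ratio 0.908) read 7.97 against 7.25 to 7.32 in the other control rats. Tgm2 in control rat 4 (0.836) read 9.89 against 9.70 to 9.73. Nrip1 in HP rat 1 (0.925) read 8.68 against 8.10 to 8.15.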

How the results depend on the processing

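The sign of the difference held for Cyp26b1, Aldh1a1, Retsat, Lrat and Rarb in 16 of 16 alternatives each. The filters, gene means, the replicate block and a plainer variance estimate left each difference as it was, so they could not change its sign. Rank products called Cyp26b1 and Aldh1a1 higher in 14 of 14 alternatives and Rarb lower in 9 of 14. Retsat was called without control rat 1 and Lrat without control rat 4. Limma called none of the 5 under any alternative, with adjusted p for Cyp26b1 from 0.0524 to 0.525. With the rat number as a replicate block, rank products called 3 of the 8 genes and limma 0, and among the other pathway genes rank products no longer called Adh1c (FDR = 0.0605) or Pnpla3 (FDR = 0.0520) and called Rdh16 and Hsd17b6 (FDR = 0.0297) lower. Rats with the same number had correlations from -0.20 to 0.48 and are different animals. The number of other retinoid pathway genes called by rank products, 2 with all rats, was 0 when only measured probe sets were ranked, 1 without the dimmest 25% and 1 to 5 with a rat left out. The difference of Pnpla3, -0.17 with all rats, reversed to 0.0531 without control rat 4 and 0.0731 without HP rat 1, and was lowest, at -0.64, without control rat 1. Over the whole array, rank products called 26 higher and 19 lower with only measured probe sets ranked, 234 and 305 without the dimmest 25%, and between 84 and 587 higher and between 71 and 526 lower with a rat left out, against 353 and 495 (2 of them control probe sets) with all rats. Unadjusted limma p-values under 0.05 numbered 526, from 332 to 850 with a rat left out, 875 with array weights and 2427 without the span minimum, over 31042 probe sets. Centring and quantile scaling changed no call of the 5 genes. The causes were not tested. Dim probe sets without a measured span limit what can be said of Cyp26a1.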
